A study of Mus musculus with 2 samples.

Results

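The 9 genes described here carry the macrophage lineage programme: the receptor for colony stimulating factor 1 (Csf1r) and its ligand (Csf1), the transcription factors PU.1 (Spi1), C/EBP alpha, beta and delta (Cebpa, Cebpb, Cebpd), c-MAF (Maf) and RUNX1 (Runx1), and the surface receptor F4/80 (Adgre1). They were chosen by symbol and by no rule on their values, though earlier results of these data were known. All 9 were found among the 55536 genes of the deposited tables. The RNA came from the nuclear fraction of bone-marrow-derived macrophages, primary C57BL/6J mouse cells grown out of marrow. The cells were treated with 100 ng/ml Lipid A, the part of bacterial lipopolysaccharide that TLR4 binds, for 12 h, kept without it for 12 h after a wash, and treated with 100 ng/ml again for 120 min. This 1 condition had 2 biological replicates, total RNA depleted of ribosomal RNA, from 1 µg of RNA in replicate 1 and 500 ng in replicate 2. Both carry the same donor label, age and sex were not collected, and the fraction is called nucleus in one label and nucleoplasmic in another. No transgene or deletion is named. Whether the replicates came from separate animals is not stated, so differences between these libraries may be technical. Untreated cells and other fractions were not analysed here, so nothing below is an effect of Lipid A.

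CSF1 is the growth factor on which most macrophages depend, and bone marrow cultures become macrophages under it. It binds CSF1R, a receptor tyrosine kinase of the cell surface. PU.1, an ETS-family factor, and C/EBP alpha, a basic leucine zipper factor, are known to commit progenitors to the myeloid lineage and to act at the Csf1r gene, where RUNX1 is known to help open the chromatin. C/EBP beta and C/EBP delta are leucine zipper factors known to be induced by inflammatory signals, c-MAF is a large MAF factor of differentiated macrophages, and F4/80 is an adhesion G protein-coupled receptor used as the surface marker of mouse macrophages.

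Runx1 is transcribed from a distal and a proximal promoter, and RNA was assigned to transcripts of both starts, so their sequences are shown first. They are from RefSeq's GRCm38.p6 annotation. A window of 250 bases before and 50 after the start was used for 4 of the 9 genes. These were Csf1, Cebpa, Cebpb and Runx1, the last with 2 windows. No window of the other genes, Csf1r among them, was searched, so the motif results do not cover them. Each line gives the 250 bases before a start, 5′ to 3′ on the gene's strand. Capitals mark an exact match to 1 of 4 motifs searched on both strands: GAGGAA (PU.1), TTGCNNAA (C/EBP), TGTGGT (RUNX) and, for NF-kB, the 10 letters in capitals in the Csf1 promoter below.
Runx1 distal, chr16:92826075-92826324, minus strand: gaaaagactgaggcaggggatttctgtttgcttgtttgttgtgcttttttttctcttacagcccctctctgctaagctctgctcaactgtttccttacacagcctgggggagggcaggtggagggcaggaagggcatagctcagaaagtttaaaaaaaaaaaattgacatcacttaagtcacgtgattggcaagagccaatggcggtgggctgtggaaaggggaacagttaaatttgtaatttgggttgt
Runx1 proximal, chr16:92697330-92697579, minus strand: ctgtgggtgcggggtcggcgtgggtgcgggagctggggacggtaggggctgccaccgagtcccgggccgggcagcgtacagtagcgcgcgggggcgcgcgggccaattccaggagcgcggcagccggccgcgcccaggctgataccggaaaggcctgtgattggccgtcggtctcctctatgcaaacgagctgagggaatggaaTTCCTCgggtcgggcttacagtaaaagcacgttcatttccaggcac
Runx1 distal, 30 bases within the first exon, chr16:92826025-92826054, minus strand: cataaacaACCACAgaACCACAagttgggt
The distal window held 2 RUNX matches, both after the start at positions 29 and 37 and read on the opposite strand, and none of the other motifs. Of 32817 windows of the same length, 16.8% held at least 1 RUNX match and 1.81% held 2 or more. The proximal window held 1 PU.1 match 46 bases before the start, as did 28.3% of all windows at some position. The 250 bases before the distal start had a GC content of 45.6% and those before the proximal start 67.6%. The distal start of the window, 92826074, is that of the transcript Runx1-207. The distal mRNA Runx1-201 starts at 92826149, within the 250 bases shown, and the distance between the Runx1 starts given below is measured from there.

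The promoters of Csf1 and Cebpb are shown for 2 reasons: Csf1 had the only NF-kB match among the 5 windows, NF-kB being the factor that TLR4 signalling is known to activate, and Cebpb differed most between the libraries and has the most GC-rich promoter of the 4 genes.
Csf1, chr3:107760470-107760719, minus strand: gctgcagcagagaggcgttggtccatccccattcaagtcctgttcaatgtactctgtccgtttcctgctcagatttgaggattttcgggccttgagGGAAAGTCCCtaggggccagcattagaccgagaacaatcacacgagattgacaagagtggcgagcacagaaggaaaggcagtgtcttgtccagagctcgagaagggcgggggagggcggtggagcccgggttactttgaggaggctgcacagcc
Cebpb, chr2:167688665-167688914, plus strand: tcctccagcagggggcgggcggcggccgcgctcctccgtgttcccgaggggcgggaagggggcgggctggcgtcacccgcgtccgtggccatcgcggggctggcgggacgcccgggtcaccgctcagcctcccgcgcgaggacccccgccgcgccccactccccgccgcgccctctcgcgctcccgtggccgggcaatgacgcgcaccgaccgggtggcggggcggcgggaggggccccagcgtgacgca
The Csf1 match began 154 bases before the start and was read on the opposite strand. That motif stood in 51 of the 32817 windows, 0.155%. The Cebpb promoter had a GC content of 81.6%, against 56.4% for Csf1 and 66.4% for Cebpa, and it held none of the 4 motifs. A C/EBP match stood in none of the 5 windows and in 10.8% of all windows. A match is a stretch of letters, and binding was not measured.

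The libraries had 28450309 (replicate 1) and 16940220 (replicate 2) expected counts on genes, and the 14698 genes whose mean count reached 10 had a common biological coefficient of variation of 0.335. After TMM scaling, which sets a typical gene to the same level in both libraries, 82.7% of these genes lay within a factor of 2. TPM, the level per transcript length as a share of the whole library, moved differently. In the nuclear fraction most TPM fell on mitochondrial genes, short RNA classes and genes of effective length under 200. Only 20.8% in replicate 1 and 30.4% in replicate 2 was left without them. The median tested gene had a log2 ratio of replicate 2 over replicate 1 of 0.43 for TPM + 1, against 0.0045 after TMM scaling. The part of those RNAs in this shift was not tested. Levels below are deposited TPM, differences between libraries are given on TMM-scaled counts, and both are named each time. In bulk RNA, fewer cells of a type and less RNA per cell cannot be told apart.

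All 9 genes were present in the nuclear fraction, each with TPM 1 or more in replicate 1 and in replicate 2. Of all genes 18.8% reached that level, and of protein-coding genes 39.6%. The median of the 9 was 44.95 TPM in replicate 1 and 49.28 in replicate 2, where the median protein-coding gene had 0.18 and 0.29. The levels spanned from Adgre1 at 643 ± 150 TPM (mean ± SD, n = 2, here and below) to Cebpa at 2.39 ± 0.106. Between them came Csf1r (175 ± 22.3), Maf (66.3 ± 23.0), Csf1 (58.0 ± 18.4), Spi1 (48.6 ± 0.962), Runx1 (26.8 ± 8.80), Cebpb (17.6 ± 17.6) and Cebpd (4.74 ± 1.69). The values of Adgre1 and of Csf1r lay apart from all others in both libraries. Within a library of the gene tables Maf lay above Csf1 and Cebpb above Cebpd in both replicates, although the ranges of each pair over the 2 libraries overlapped. Csf1 and Spi1 exchanged order between the libraries, as did Runx1 and Cebpb. By mean TPM, Adgre1 stood at rank 23 of 22015 protein-coding genes of the nuclear genome, Csf1r at 132, Maf at 486 and Cebpa at 7698.

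**Figure D1:**
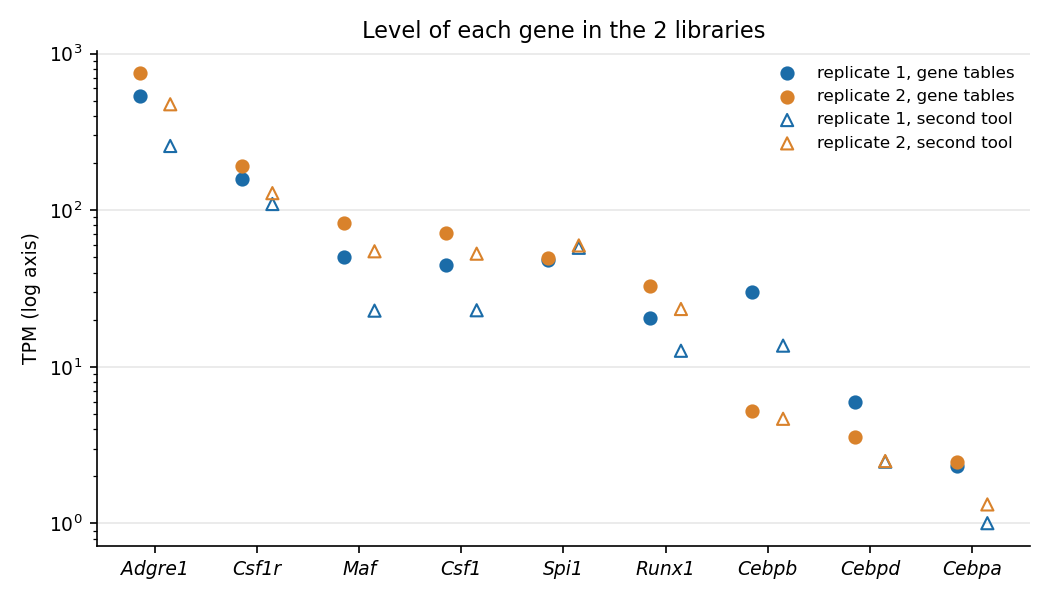
TPM on a log axis for the 9 genes, ordered by mean level, in replicate 1 (blue) and replicate 2 (orange); circles are the deposited gene tables and open triangles the authors' second transcript quantification. Adgre1 and Csf1r stand above the rest, the libraries nearly coincide for Spi1 and Cebpa in the gene tables, and Cebpb is the gene whose libraries are furthest apart (30.04 and 5.19 TPM).

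Csf1r (ENSMUSG00000024621.16, mm10 chromosome 18, 61100598 to 61132149, plus strand) had 159.38 TPM in replicate 1 and 190.89 in replicate 2. By counts it went the other way, with 28036 in replicate 1 and 9547 in replicate 2, a log2 ratio on TMM-scaled counts of -0.97 (1.96-fold higher in replicate 1). The exact binomial test called this difference, with an adjusted p below the smallest number the software stores. The test takes in counting error alone, and it sets library against library, with no condition compared. Of the tested genes, 7.28% had a lower ratio.

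Part of the gene's TPM lay on 1 short transcript model, whose share differed between the libraries. Csf1r-205 is an annotated fragment of 416 bases and 3 exons with no annotated 3′ end, at the first coding exons of the gene. It took 14.53 TPM in replicate 1 and 80.16 in replicate 2, which was 9.12% and 42.0% of the gene's TPM, but only 130 and 335 counts, 0.464% and 3.51% of the gene's counts. The effective length that the deposited table gave the gene was 3565 bases in replicate 1 and 2383 in replicate 2. Without transcripts under 500 bases Csf1r had 144.84 TPM in replicate 1 and 110.73 in replicate 2, so the library with the higher TPM was then replicate 1. The authors' second transcript quantification gave the fragment 40.7% and 39.9%, with no such difference, and there too Csf1r had the higher TPM in replicate 2 (110 and 129) and the lower TMM-scaled counts (log2 ratio -1.20). Rescaled TPM, computed without short and mitochondrial RNAs but with the fragment, was 765 in replicate 1 and 627 in replicate 2. What share of the opposite directions belongs to the fragment was not tested. Among 5569 protein-coding genes with a transcript under 500 bases, the share of such transcripts had a median of 1.41% in replicate 1 and 0% in replicate 2, and it rose by more than 30 points in 159, or 2.86%; Csf1r's share rose by 32.9 points.

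The full-length receptor mRNAs were Csf1r-201 and Csf1r-202, which encode the same 977 residues and differ in their ends. Csf1r-201 had 96.25 TPM in replicate 1 and 65.34 in replicate 2, or 60.4% and 34.2% of the gene's TPM. Csf1r-202, with the longer 3′ end, had 48.16 and 44.30 TPM (30.2% and 23.2%). The second quantification gave Csf1r-202 only 4.25% and 6.33%, so how reads divide between these ends depends on the tool. The longer end reaches over the 3′ part of Hmgxb3, a gene of the other strand with 1163 and 909 counts. The strand setting of the counting was not stated, and reads of such overlaps cannot then be told apart. Csf1r-206, a non-coding model that starts upstream at 61100598, had 0 counts in both libraries.

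Csf1 (ENSMUSG00000014599.10, chromosome 3, 107741048 to 107760469, minus strand) had 44.95 TPM in replicate 1 and 71.02 in replicate 2. The nuclear fraction held RNA of the growth factor as well as of its receptor. Its counts were 7320 and 4916, and on TMM-scaled counts the libraries had 272 and 274 CPM (counts scaled to library size), a log2 ratio of 0.01 that the exact binomial test did not call (adjusted p = 0.781). The receptor's TPM was 3.55 times that of the ligand in replicate 1 and 2.69 times in replicate 2, a ratio within each library that total TPM does not enter. With transcripts under 500 bases left out, these ratios were 3.22 and 1.56.

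Alternative splicing of Csf1 is known to set whether the factor is secreted or stays longer on the cell surface. Csf1-201, which encodes the long form of 552 residues, took 65.8% of the gene's TPM in replicate 1 and 60.2% in replicate 2. Csf1-202, which encodes the short form of 257 residues, took 17.9% and 26.8%, with 1119 and 1136 counts. In the second quantification the short form had 8.31% and 24.0%. Csf1-205, an incomplete model, passed 10% there only, with 15.1% and 11.2%. The long form had the larger share in both libraries and with both tools.

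The other growth factors and receptors of the family were split. Il34, the second ligand of CSF1R, had 0 counts in both libraries, which allows up to 0.105 CPM in replicate 1 and 0.177 in replicate 2 (a count of 3, counting error only). The receptors of the granulocyte-macrophage factor were present: Csf2ra had 60.2 ± 0.750 TPM, Csf2rb 37.6 ± 8.29 and its near copy Csf2rb2 33.0 ± 1.45, where reads shared by the last 2 leave their split uncertain. Csf3r, the receptor of the granulocyte factor, had 45.7 ± 3.03 TPM. The ligands Csf2 (0.36 and 1.31 TPM) and Csf3 (0.14 and 0.16) lay near or under 1. Csf1r's closest relatives were low, with Kit at 0.55 ± 0.184 TPM, Flt3 at 0.105 ± 0.0495, Pdgfrb at 0.445 ± 0.346 and Pdgfra at 0 and 0.01. Kitl, the ligand of KIT, had 1.17 ± 0.0141 TPM and Flt3l, the ligand of FLT3, 2.69 ± 0.714. In all, 6 of these 13 genes reached TPM 1 in both libraries. On TMM-scaled counts 6 of the 10 tested were lower in replicate 2, 2 (Csf2 and Pdgfrb, on few counts) were higher and 2 (Kit and Flt3l) were not called. Across all 14698 tested genes the same test called 30.2% lower and 29.7% higher in replicate 2.

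**Figure D2:**
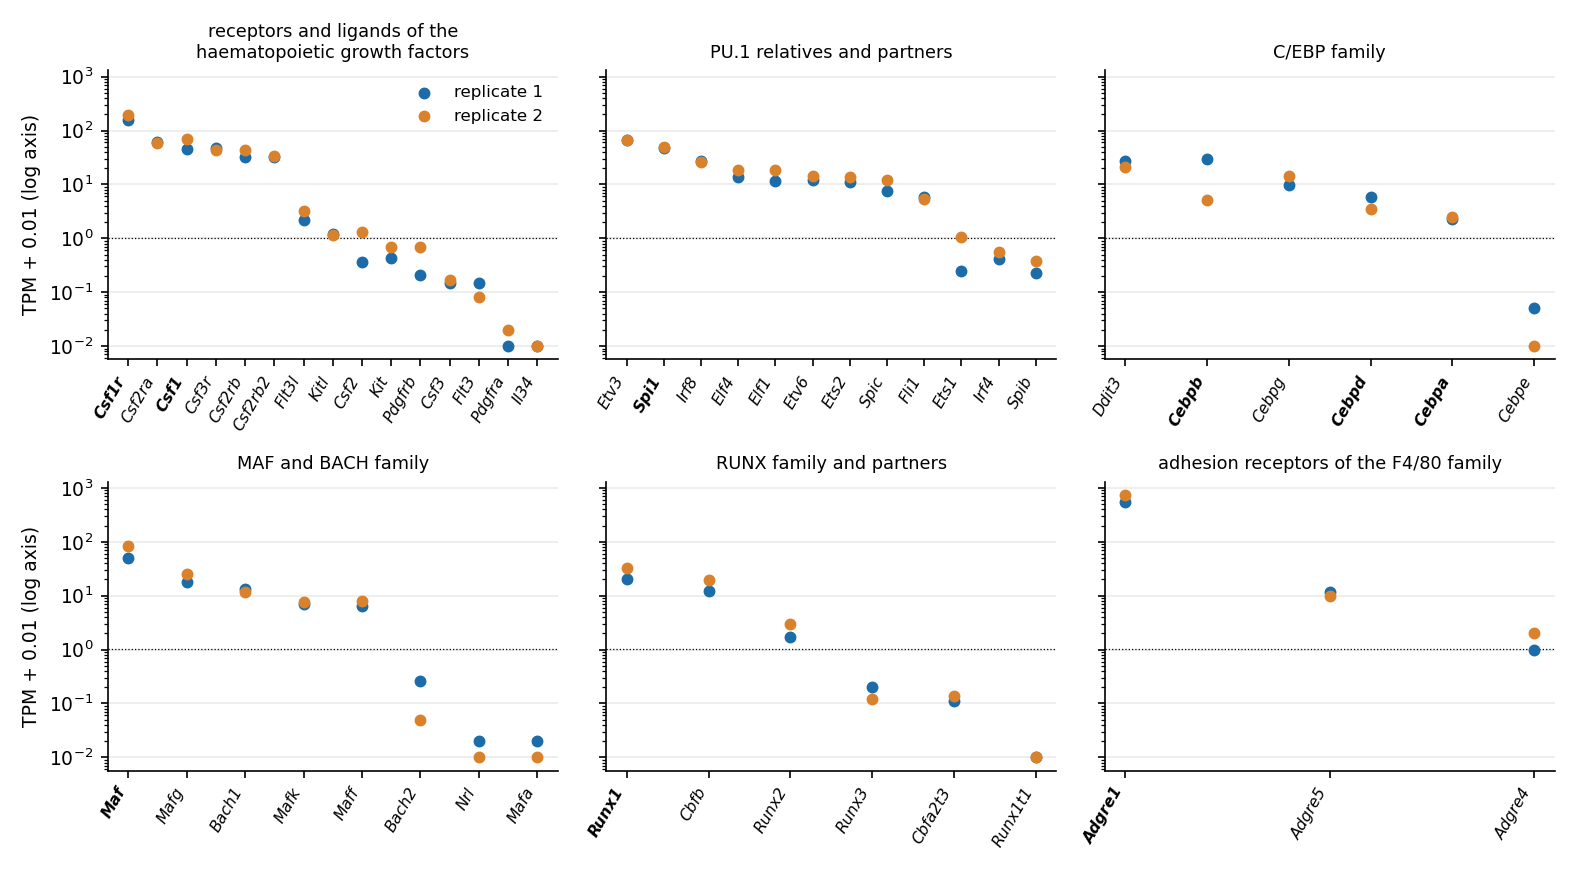
TPM + 0.01 on a log axis for the genes of 6 families that are reported here, in replicate 1 (blue) and replicate 2 (orange), with the genes of the report in bold and a dotted line at TPM 1. In the MAF, RUNX and F4/80 families a gene of the report (Maf, Runx1, Adgre1) has the highest level. Csf1r does so among the growth factor receptors and ligands, while Etv3 lies above Spi1 and Ddit3 above the C/EBP genes by mean. These are the gene tables' values, and in the second quantification Spi1 lies above Etv3.

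Downstream of CSF1R, each of the 20 listed genes of signalling and shedding reached TPM 1 in both libraries, with a list median of 17.885 and 21.305 TPM. They were led by Pik3ap1, an adaptor for PI3 kinase (166 ± 15.9 TPM), the Src-family kinase Lyn (104 ± 27.6) and the adaptor Tyrobp, or DAP12 (90.9 ± 42.6; 120.97 in replicate 1 and 60.78 in replicate 2). On TMM-scaled counts 13 of the 20 were lower in replicate 2, 2 were higher and 5 were not called. The shares over all tested genes were 30.2% lower and 29.7% higher.

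Spi1 (ENSMUSG00000002111.8, chromosome 2, 91082390 to 91115756, plus strand) had 47.92 TPM in replicate 1 and 49.28 in replicate 2. These nearly equal TPM values did not carry over to counts, which were 3028 and 1221, or 113 and 68.1 CPM after TMM scaling. That log2 ratio of -0.73 was lower in replicate 2 by the exact binomial test (adjusted p = 9.7e-52). Rescaled TPM was 230 in replicate 1 and 162 in replicate 2.

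RNA of Spi1 was assigned to transcripts of 2 annotated starts 13706 bases apart. Spi1-201, which encodes the PU.1 protein of 272 residues from the downstream start, took 64.8% of the gene's TPM in replicate 1 and 55.8% in replicate 2, and 90.9% and 85.9% of its counts. The upstream start, of the processed transcript Spi1-202 and the incomplete Spi1-204, took 28.5% and 43.4% of the TPM but 249 and 170 counts, 8.21% and 13.9%. The second quantification gave the upstream start 28.7% and 46.5%. It gave Spi1-201 only 26.0% and 28.7%, and put 45.3% and 24.8% on Spi1-203, a fragment of 402 bases that held 0.884% and 0.124% of the counts in the first tables. Both tools assigned RNA to the upstream start, whereas the share of the full-length mRNA at the downstream start depends on the tool. Use of the starts themselves was not measured.

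PU.1's relatives differed widely in level. Spib, its lymphoid paralogue, had 0.22 and 0.37 TPM, and Spic, the factor of red pulp macrophages, 7.65 and 12.22. Irf8, a partner of PU.1 in monocyte development, had 26.3 ± 0.750 TPM, so that Spi1 lay 1.79-fold above it in replicate 1 and 1.91-fold in replicate 2. The repressor Etv3 was the highest of the list in the gene tables, at 66.0 ± 0.820 TPM. In the second quantification it had 27.9 and 41.2 TPM, below Spi1 at 57.6 and 59.6. Of the 11 relatives and partners 8 reached TPM 1 in both libraries. On TMM-scaled counts 6 of the 11 tested were lower in replicate 2, 1 was higher (Ets1, 0.24 and 1.04 TPM) and 4 were not called. The shares over all tested genes were 30.2% lower and 29.7% higher.

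Cebpa (ENSMUSG00000034957.10, chromosome 7, 35119293 to 35121928, plus strand) was the lowest of the 9, with 2.31 TPM in replicate 1 and 2.46 in replicate 2 from 263 and 110 counts. The deposited credibility intervals, whose level the files do not give, ran from 2.01 to 2.59 and from 1.90 to 2.81 TPM. The TMM-scaled log2 ratio was -0.67 (exact binomial test, adjusted p = 7.6e-05). Cebpa-201, a single-exon mRNA for a protein of 359 residues, took 82.7% of the TPM in replicate 1 and 40.7% in replicate 2. The spliced Cebpa-202, annotated with 159 residues, took the other 17.3% and 59.3%, on 37.7 and 59.5 counts. With the second quantification it had 1.49% and 47.2%, so with both tools its share was larger in replicate 2 than in replicate 1, on few counts.

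Cebpb (ENSMUSG00000056501.3, chromosome 2, 167688915 to 167690418, plus strand) differed most. It had 30.04 TPM in replicate 1 and 5.19 in replicate 2, from 1879 and 140 counts, and the deposited intervals of 28.2 to 30.9 and 4.14 to 5.78 TPM did not meet. On TMM-scaled counts replicate 1 was 8.93-fold higher (log2 ratio -3.16, exact binomial test, adjusted p = 8.7e-252), and 0.422% of tested genes had a lower ratio. The second quantification gave 13.7 and 4.66 TPM, and a count ratio of 7.38-fold. The TPM of Cebpb over that of Spi1 was 0.627 in replicate 1 and 0.105 in replicate 2. The gene has 1 exon and 1 transcript, so no split between isoforms enters, but its exon overlaps Tmem189 on the other strand, which had 2366 and 1051 counts.

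Cebpd (ENSMUSG00000071637.5, chromosome 16, 15887286 to 15891031, plus strand) had 5.93 TPM in replicate 1 and 3.54 in replicate 2 from 1026 and 262 counts. Replicate 1 was 2.61-fold higher on TMM-scaled counts (log2 ratio -1.38, exact binomial test, adjusted p = 4.3e-50). All its counts fell on the single-exon Cebpd-201, which encodes 268 residues, and Spidr overlaps it on the other strand with 320 and 193 counts. In the second quantification it had 2.48 and 2.50 TPM, so there the libraries were alike on the TPM scale, while its counts were 2.59-fold apart after TMM scaling. Cebpb and Cebpd were the only 2 of the 9 genes with a lower TPM in replicate 2 and the only 2 at 2-fold or more by TMM-scaled counts. On the second quantification's TMM-scaled counts Csf1r (2.30-fold), Spi1 (2.10-fold) and Cebpa (2.15-fold) also passed 2-fold.

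The remaining C/EBP genes were Cebpg, which lacks an activation domain, at 11.9 ± 3.31 TPM, Ddit3, or CHOP, a partner induced by stress, at 23.9 ± 4.11, and the granulocyte factor Cebpe at 0.04 and 0 TPM. Ddit3 has 2 annotated identifiers, of which the one with more counts is given. The 2 tested, Cebpg and Ddit3, were both lower in replicate 2 (log2 ratios on TMM-scaled counts of -0.20 and -0.98). All 5 tested genes of the family thus lay lower there, where 30.2% of all tested genes were called lower. Within a library, Cebpb had 13.0 times the TPM of Cebpa in replicate 1 and 2.11 times in replicate 2.

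**Figure D3:**
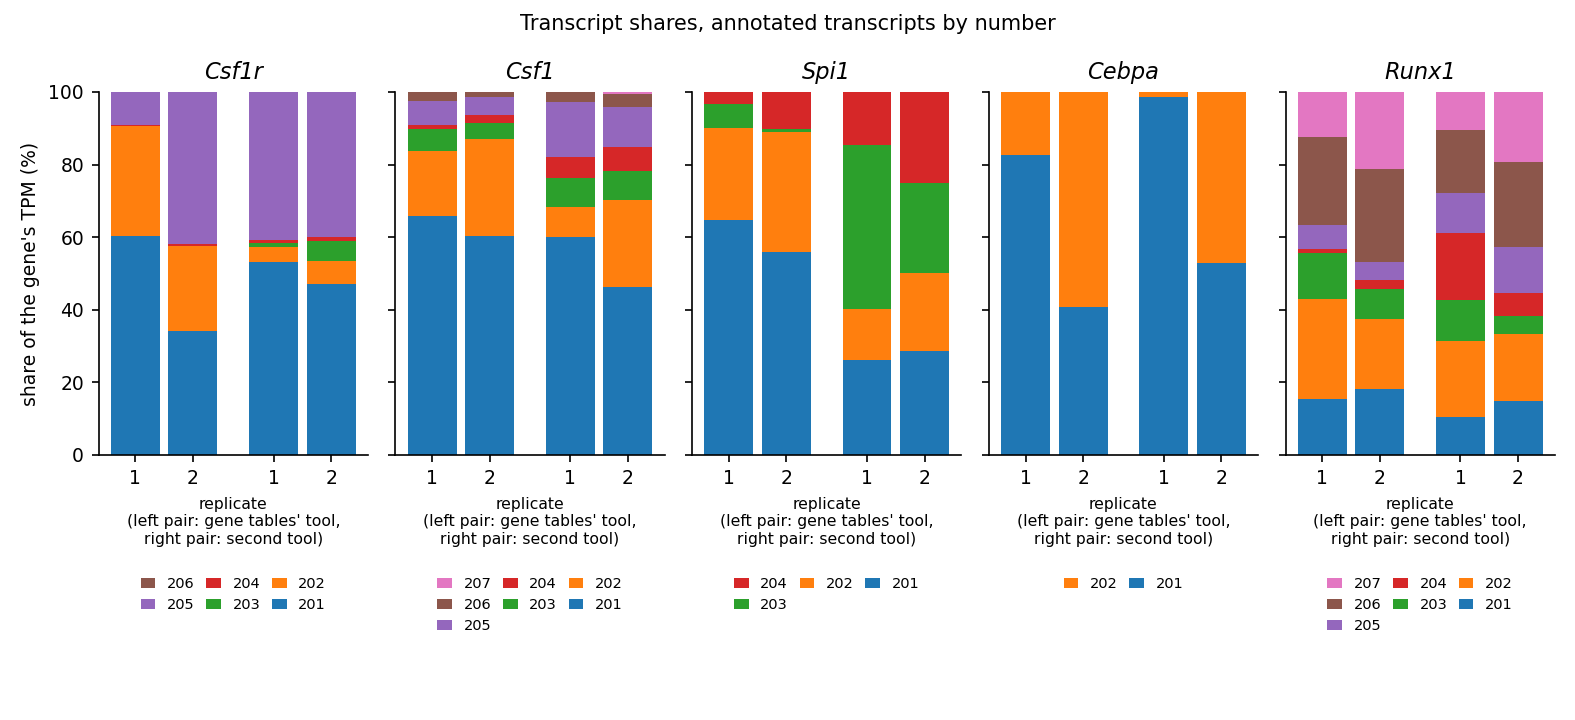
Share of each gene's TPM (%) on its annotated transcripts, stacked, for 5 genes. Each panel has replicates 1 and 2 from the deposited gene tables' tool (left pair) and from the second quantification (right pair). Csf1r-205 takes 9.12% and 42.0% in the left pair and about the same share in both replicates in the right pair, and Spi1-203 takes more than Spi1-201 in replicate 1 of the second quantification only (45.3% and 26.0%).

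Maf (ENSMUSG00000055435.6, chromosome 8, 115682942 to 115707794, minus strand) had 50.05 TPM in replicate 1 and 82.56 in replicate 2. Its counts were 14410 and 10169, and the TMM-scaled log2 ratio was 0.08, the only one of the 9 called higher in replicate 2 (exact binomial test, adjusted p = 4.2e-05). In the second quantification's counts the ratio was -0.13. The single-exon Maf-202, for a protein of 370 residues, took 90.8% and 91.3% of the TPM, and the spliced Maf-201, for 380 residues, 9.19% and 8.71%. The division was alike in the second quantification, with 91.1% and 91.9% for Maf-202. The antisense gene Gm15655, which lies over Maf exons, had 225 counts in replicate 1 and 364 in replicate 2, and without a stated strand setting those reads cannot be told from reads of Maf.

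Relatives of Maf lay below it in both libraries. Mafa, a factor of pancreatic beta cells, and Nrl, a factor of rod photoreceptors, were at 0.01 and 0 TPM each. The small MAF proteins, which lack an activation domain, were present, Mafg at 21.8 ± 5.06 TPM, Mafk at 7.37 ± 0.417 and Maff at 7.20 ± 0.997. Their partner Bach1, a haem-binding repressor, had 12.3 ± 1.05 TPM and the lymphoid Bach2 0.25 and 0.04. Of the 6 relatives tested 5 were lower in replicate 2, and Mafg was not called (log2 ratio 0.01). The share called lower over all tested genes was 30.2%.

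Runx1 (ENSMUSG00000022952.17, chromosome 16, 92601466 to 92826149, minus strand) had 20.60 TPM in replicate 1 and 33.05 in replicate 2, from 3574 and 2421 counts. On TMM-scaled counts it had 133 and 135 CPM, a log2 ratio of 0.02 that was not called (exact binomial test, adjusted p = 0.641). Csf1 and Runx1 were the 2 genes of the 9 not called in either direction.

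RNA was assigned to both ends of Runx1. Transcripts from the distal start took 29.0% of the gene's TPM in replicate 1 and 42.0% in replicate 2, and those that start at or near the proximal promoter, 128821 bases downstream, 71.0% and 58.0%. In the second quantification the distal start had 39.3% and 40.4%. These shares include 18.5% and 6.15% on Runx1-204, an incomplete fragment of 336 bases. That fragment held 0.0330% and 0.0855% of the gene's counts in the gene tables' tool. By counts the distal share was 33.0% and 43.7%. The proximal group had the larger share in both libraries and with both tools, but it holds Runx1-203, which starts further in, and Runx1-205, whose start is not annotated. Runx1-202 and Runx1-206, which begin at the proximal promoter shown above, took 51.6% and 45.0% of the TPM, above the distal share in both libraries. In the second quantification they took 38.4% and 41.8%, close to the distal share and on either side of it. Of the coding mRNAs, the proximal Runx1-202 (387 residues) had 5.63 and 6.40 TPM, the proximal Runx1-203 (451 residues) 2.64 and 2.67, and the distal Runx1-201 (465 residues) 3.20 and 6.02.

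Much of the Runx1 RNA was on models that are not typed as coding. The retained-intron Runx1-206, from the proximal start, took 24.2% and 25.7% of the TPM, and the processed transcript Runx1-207, which begins at the distal start of the RefSeq window, 12.4% and 21.4%. Together these were 36.7% and 47.0%, where the median of 9113 genes with such transcripts was 27.1% and 33.8%. Of the other 8 genes Spi1 was next, with 25.3% and 33.2%, and Csf1r had 0.270% and 0.451%.

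Runx1 was the main member of its family. Runx2, the bone factor, had 1.70 and 2.91 TPM, and Runx3, of lymphocytes, 0.19 and 0.11. The ratio of Runx1 to Runx2 was 12.1 and 11.4. Cbfb, the shared subunit that stabilises RUNX proteins on DNA, had 15.8 ± 5.18 TPM, and Runx1 lay 1.70-fold above it in each library in the gene tables but near it in the second quantification (0.980 and 1.08). The corepressors Runx1t1 and Cbfa2t3 had 0 counts and 0.115 ± 0.0212 TPM. Of the 4 tested relatives only Runx3 was called, lower in replicate 2 on 35 and 7 counts. The shares over all tested genes were 30.2% lower and 29.7% higher. In the second quantification Runx3 had 0.516 TPM in replicate 1 and 1.54 in replicate 2, so there its TPM went the other way.

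Adgre1 (ENSMUSG00000004730.15, chromosome 17, 57358691 to 57483527, plus strand) was the highest of the 9, with 537.42 TPM in replicate 1 and 749.06 in replicate 2. Its 68845 and 40973 counts gave a log2 ratio on TMM-scaled counts of -0.16, a 1.12-fold difference that the exact binomial test called (adjusted p = 4.7e-74). With library size in place of TMM the log2 ratio was -0.00069 and not called. Adgre1-202, which encodes the whole receptor of 931 residues, took 81.6% and 80.2% of the TPM. Adgre1-204, a fragment of 342 bases, took 11.7% and 12.9% on 346 and 258 counts, and with both tools its share hardly differed between the libraries. The related Adgre5, or CD97, had 10.6 ± 1.34 TPM and Adgre4 1.49 ± 0.714. Within a library Adgre1 had 3.37 times the TPM of Csf1r in replicate 1 and 3.92 times in replicate 2.

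Between the libraries, 6 of the 9 genes were lower in replicate 2 (Csf1r, Spi1, Cebpa, Cebpb, Cebpd and Adgre1), 1 was higher and 2 were not called. With the second quantification's counts all 9 were called lower and 0 higher, Maf included, and with library size in place of TMM Adgre1 was not called. On the gene tables' counts 30.2% of all tested genes were called lower and 29.7% higher. A call there by itself sets none of the 9 apart. No such share was computed for the second quantification's counts, so its 9 calls have no background here. The median log2 ratio of the 9 was -0.67. On deposited TPM 7 of the 9 were higher in replicate 2, and on rescaled TPM 6 were higher in replicate 1. The median tested gene was itself higher in replicate 2 on TPM + 1 (log2 ratio 0.43). No share over all genes was computed for either of these counts. Of the 80 tested list genes that are not among the 9, 52 were lower in replicate 2, 10 were higher and 18 were not called.

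**Figure D4:**
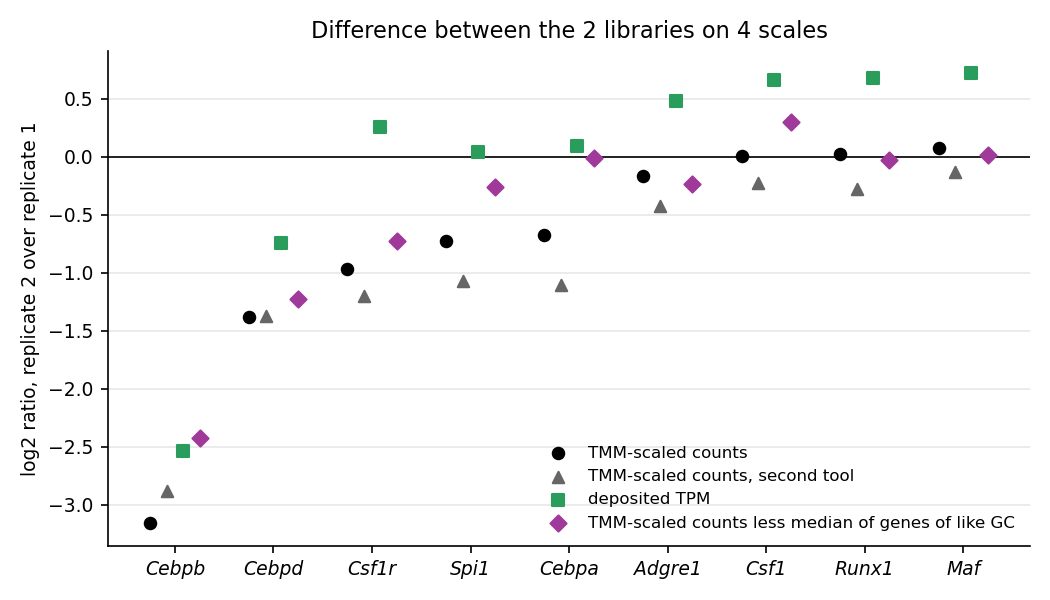
Log2 ratio of replicate 2 over replicate 1 for each of the 9 genes on TMM-scaled counts (black circles), the second quantification's counts (grey triangles), deposited TPM (green squares) and TMM-scaled counts less the median of genes of like GC content (purple diamonds). Cebpb and Cebpd lie below 0 on all 4 scales, and Csf1r, Spi1, Cebpa and Adgre1 are above 0 on deposited TPM only.

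GC content moved with the ratio. With the tested genes in 10 groups of like size by GC content of the leading transcript, the median log2 ratio on TMM-scaled counts went from 0.63 in the group of lowest GC content to -0.49 in that of highest. Maf, Adgre1 and Runx1 had 47.4%, 47.2% and 48.2% GC and ratios near 0, while Spi1 had 58.9%, Cebpa 62.6% and Cebpb 67.2% and ratios below 0. Csf1r (53.9%), Csf1 (54.4%) and Cebpd (51.6%) had like GC contents but ratios of -0.97, 0.01 and -1.38. Less the median of genes within 1 point of GC, the ratios were -0.01 for Cebpa, 0.01 for Maf, -0.03 for Runx1, -0.23 for Adgre1, -0.26 for Spi1 and 0.30 for Csf1. They were -0.73 for Csf1r, -1.23 for Cebpd and -2.42 for Cebpb. In those windows 9.71% of 1370 genes had a lower ratio than Csf1r, 4.35% of 1425 than Cebpd, and 0% of 20 than Cebpb. Less the median of its GC group among the 10, Cebpa had -0.18. The part of GC content in these differences was not tested, and RNA input and replicate cannot be told apart.

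**Figure D5:**
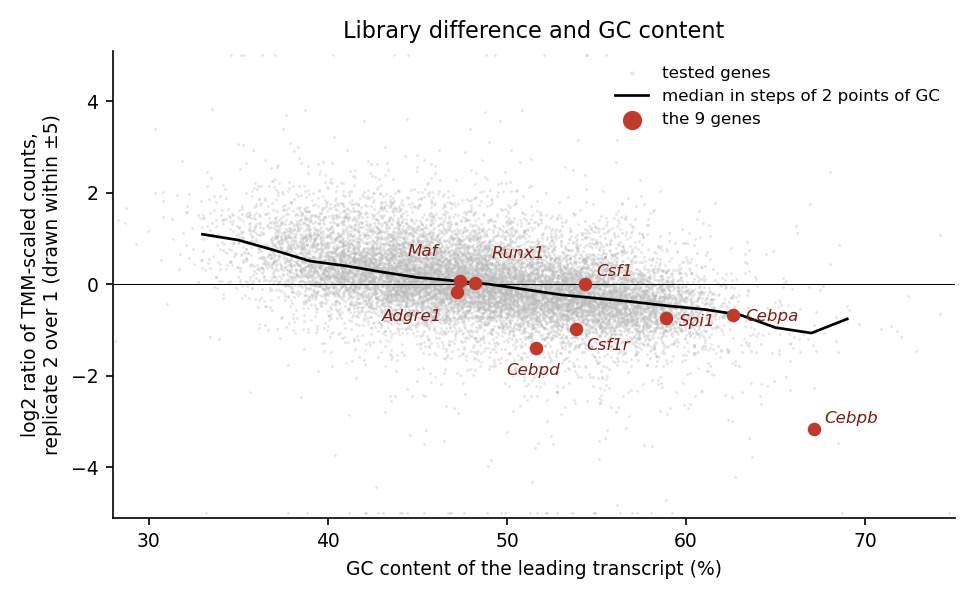
Log2 ratio of TMM-scaled counts, replicate 2 over replicate 1, against GC content of the leading transcript (%) for the tested genes (grey, drawn within ±5), with their median (black line) and the 9 genes (red). The median falls with GC content; Cebpa, Maf and Runx1 lie on it, and Cebpb lies lowest of the 9.

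Other transcription factors of myeloid cells and macrophage products were measured beside them. Of 16 other factors 14 reached TPM 1 in both libraries, led by the repressor Zeb2 (396 ± 189 TPM), the helix-loop-helix inhibitor Id2 (84.3 ± 6.23) and Ikzf1, or IKAROS (40.7 ± 8.49). Zeb2 was above every transcription factor among the 9, with 262.10 TPM in replicate 1 and 529.91 in replicate 2. Gata6, the factor of peritoneal macrophages, had 0 counts. All 10 macrophage products reached TPM 1 in both, led by lysozyme Lyz2 (1300.24 and 1228.94 TPM), the pore-forming Mpeg1 (723.94 and 711.79) and the co-receptor Cd14 (167.50 and 223.88). On TMM-scaled counts 9 of these 10 were lower in replicate 2 and 1, Msr1, was higher. The shares over all tested genes were 30.2% lower and 29.7% higher.

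Markers of other cells were mostly near 0 in the gene tables, as far as 54 listed genes show. Of these 48 were below TPM 1 in both libraries and 5 at or above it in both: Pf4 (19.32 and 20.11 TPM), Cd4 (13.87 and 13.45), Kdr (11.96 and 8.30), Acp5 (3.80 and 4.53) and Gfi1 (1.81 and 1.15). Their summed TPM was 56.3 in replicate 1 and 56.4 in replicate 2. Cd3e, Elane, Ly6g and Cd79a, of T cells, granulocytes and B cells, had 0 counts in both libraries, while others of the same lists had a few, such as Cd79b (14 and 16 counts), Ltf (6 and 3) and S100a8 (4 and 1). The T cell gene Cd3d had 2 and 0 counts in the gene tables but 1.00 and 5.57 TPM in the second quantification. Pecam1, of endothelial cells, had 0.54 and 0.55 TPM in the gene tables but 1.45 and 14.4 in the second quantification. Ocstamp, Ebf1, Cd34 and Zbtb46 also passed TPM 1 there in replicate 2, and Gfi1 fell below it. The count of 48 is thus for the gene tables alone. The part of other cells in the results was not tested.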

How the data were processed

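Nuclear RNA of 1 condition with 2 replicates was quantified by the authors. The deposited gene and transcript tables hold, per the file headers, expected counts (estimates, not always whole numbers), TPM, bounds of a credibility interval (used as a score, level not given) and the transcript's percent of its gene. A second deposited transcript table gives estimated counts and TPM from another tool. The reference was mm10 with GENCODE M21 per the file headers. Which tools, versions and strand setting were used is not given in the sources used here.

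These 9 genes and the lists were chosen with earlier results of these data known. Named were the 9, the genes of the receptor, C/EBP, MAF, RUNX and F4/80 lists (1 of them is not reported here by name), the 3 highest of other lists, paralogues under TPM 1, and transcripts with 10% or more of a gene's TPM. Others singled out (Ets1, Msr1, Mafg in its call, Spi1-203, Csf1r-206, Runx1-204 and the genes over a member or marking other cells) were chosen after their values were seen.

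Expected counts were rounded. Genes whose mean count reached 10 were compared between libraries with a two-sided exact binomial test on TMM-scaled library sizes (edgeR 4.0.16, R 4.3.3), with Benjamini-Hochberg adjustment over all 14698 and a threshold of 0.05. Ratios used a prior count of 0.5. Rescaled TPM left out mitochondrial genes, short RNA classes and effective lengths under 200. The other software was scipy 1.17.1, pandas 2.3.3, numpy 2.4.6 and matplotlib 3.10.9 in Python 3.11.15. The alternatives included DESeq2 1.42.0 size factors, library size, no filter, other pseudocounts and TPM thresholds, each library alone, and, chosen after seeing the data, GC centring and leaving out transcripts under 500 bases.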

Additional observations from a re-analysis of the deposited data

How the results depend on the processing

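All 9 genes stayed at TPM 1 or more in both libraries with the second quantification, posterior mean TPM and rescaled TPM, and 7 did at TPM 5. The median TPM of the 9, 47.1, was 37.8 with the second quantification and 188.8 rescaled, and ran from 44.95 to 49.28 with 1 library left out. The 6 genes lower in replicate 2 were 5 with library size in place of TMM (Adgre1 was not called, at -0.00069), 6 with DESeq2 size factors or no count filter, and 9 with the second quantification's counts. At 1.5-fold or more they were 5, and 3 after GC centring, which takes out part of the difference by its construction. The share of all tested genes called lower was computed for the main setting only (30.2%). The counts of called genes under the other settings thus have no background here. Log2 ratios changed sign on log2(TPM + 1) for Csf1r (0.26), Spi1 (0.040), Cebpa (0.064) and Adgre1 (0.48). With a pseudocount of 0.1 these were 0.26, 0.040, 0.087 and 0.48. On the second quantification's TPM + 1 they were 0.23, 0.049, 0.21 and 0.88, and Cebpd was 0.0092. Maf was -0.13 on its counts. The cause was not tested. On rescaled TPM and after GC centring no called ratio changed sign. Csf1 and Runx1, not called, were called with library size (0.17 and 0.19) and, the other way, with the second quantification's counts (-0.23 and -0.27). Low counts limit Cebpa (110 in replicate 2) and Cebpb (140). Leaving out a library gives a level but no test. No paired analysis was possible because there was 1 group.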

Other observations

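Among the markers of stem and progenitor cells, Myb had 51 counts in replicate 1 and 116 in replicate 2 and Meis1 26 and 40. Both were higher in replicate 2 on TMM-scaled counts, with log2 ratios of 1.76 and 1.19 (exact binomial test, adjusted p = 1.1e-13 and 0.0021), where 6 of the 9 lineage genes were lower. Pdgfrb, a stromal marker, also was higher there, on 51 and 75 counts (log2 ratio 1.13). In contrast Flt3 was lower (25 and 5 counts) and Kit was not called (85 and 66). All 5 lay under TPM 1 in replicate 1. These genes were picked out after their values were seen, and what the low counts stand for was not tested.

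Klf4, a zinc finger factor of monocytes, had the lowest ratio of the 15 tested factors in the list of other myeloid factors, with 199 counts in replicate 1 and 34 in replicate 2 (log2 ratio -1.95). Tfec, a relative of Mitf known in macrophages, had the highest, with 988 and 949 counts (0.53).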
